A study of Homo sapiens with 10 samples.

Results

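The genes examined were the 46 human protein-coding genes for Wnt ligands, their receptors and their secreted modulators, out of 19970 protein-coding genes of chromosomes 1 to 22 and X in RefSeq (GRCh38). They were chosen by symbol, under a rule that uses no measured value: 19 Wnt ligands, 10 Frizzled receptors (FZD), the 2 coreceptors LRP5 and LRP6, 4 R-spondins (RSPO), 3 R-spondin receptors (LGR4, LGR5 and LGR6), 4 secreted Frizzled-related proteins (SFRP1, SFRP2, SFRP4 and SFRP5) and 4 Dickkopf proteins (DKK). The study mapped, by chromatin immunoprecipitation and sequencing (ChIP-seq), where 3 RCOR proteins and LSD1 lie on the genome of Kelly cells, an established line of MYCN-amplified, adrenergic neuroblastoma. RCOR1, RCOR2 and RCOR3 are scaffold proteins of CoREST complexes, and LSD1 is the histone demethylase those complexes carry. There were 10 libraries in 5 groups of 2.

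RCOR1 and RCOR3 were each precipitated with an antibody to the protein itself from Kelly cells without treatment. RCOR2 was precipitated with a FLAG antibody from Kelly cells that carry RCOR2 with a 3xFLAG tag, after doxycycline at 2 µg/mL for 48 h (called induced RCOR2 here), and the same antibody was used on these cells without doxycycline as the background (uninduced FLAG). LSD1 was precipitated from Kelly cells that carry a doxycycline-driven shRNA against RUNX1T1, without doxycycline. RCOR2 was thus a tagged protein from an added gene, the others were precipitated at the cells' own level, and the LSD1 libraries came from a different derivative of the line. The protein, its antibody and the cell derivative cannot be told apart in any comparison between proteins. The sources used here do not say whether the libraries of a group came from separate cultures, so the spread within a group may be technical.

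Wnt ligands are secreted lipid-modified proteins that bind a Frizzled receptor together with LRP5 or LRP6, which leads to stabilised β-catenin and to transcription through TCF/LEF factors. R-spondins, through LGR receptors, keep Frizzled proteins at the cell surface, whereas SFRP proteins bind and sequester Wnts and DKK1 and its close relatives block the LRP coreceptors. In the embryo the pathway helps to induce the neural crest, the tissue from which neuroblastoma arises.

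Each library is a list of peaks with the peak caller's fold enrichment over local background, called the fold below. A peak within 2 kb of either annotated end of a gene is a gene-end peak, and a peak that overlaps the gene but is not a gene-end peak is an interior peak. Where the peaks of both libraries of a group overlapped by at least 1 base they were merged and called a region. A fold measures occupancy in these cells and not the gene's expression, and folds of libraries of different quality are not on a common scale.

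RefSeq promoter sequences, from 250 bases before to 50 bases after a listed transcription start, were matched by symbol for 31 of the 46 genes (36 promoters). The following 7 are shown because they span the range of induced RCOR2 occupancy described below: 3 Frizzled promoters with high folds, 2 ligand promoters that lie inside the annotated gene and carried RCOR2, and 2 ligand promoters with no RCOR2 region. They are written 5′ to 3′ on the gene's strand in GRCh38.p14, with each CpG dinucleotide in capitals, since CpG content was the feature compared. The positions are chr7:91264183-91264482 (plus strand) for FZD1, chr11:86955346-86955645 (minus) for FZD4, chr2:207769857-207770156 (minus) for FZD5, chr17:46851333-46851632 (plus) for WNT9B, chr3:55487257-55487556 (minus) for WNT5A, chr5:138083783-138084082 (plus) for WNT8A and chr7:121328750-121329049 (plus) for WNT16.
FZD1: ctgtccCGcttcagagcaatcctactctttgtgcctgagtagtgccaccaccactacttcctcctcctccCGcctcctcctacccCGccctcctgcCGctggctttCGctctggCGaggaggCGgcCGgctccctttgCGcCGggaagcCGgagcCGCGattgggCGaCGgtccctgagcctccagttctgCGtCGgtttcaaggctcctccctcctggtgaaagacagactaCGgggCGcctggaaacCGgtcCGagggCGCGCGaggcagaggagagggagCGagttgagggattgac
FZD4: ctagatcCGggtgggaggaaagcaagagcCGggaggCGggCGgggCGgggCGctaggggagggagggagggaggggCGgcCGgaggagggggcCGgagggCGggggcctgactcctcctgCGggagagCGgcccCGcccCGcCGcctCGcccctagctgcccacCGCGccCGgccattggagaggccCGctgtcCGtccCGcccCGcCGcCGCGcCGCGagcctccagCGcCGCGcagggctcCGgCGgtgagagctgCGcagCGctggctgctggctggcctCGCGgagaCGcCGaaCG
FZD5: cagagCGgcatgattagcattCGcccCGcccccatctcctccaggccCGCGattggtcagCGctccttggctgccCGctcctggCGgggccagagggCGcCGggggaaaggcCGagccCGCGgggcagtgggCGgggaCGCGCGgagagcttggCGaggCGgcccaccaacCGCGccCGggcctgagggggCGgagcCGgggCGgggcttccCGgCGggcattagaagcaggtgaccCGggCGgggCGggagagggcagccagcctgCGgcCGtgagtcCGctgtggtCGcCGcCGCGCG
WNT9B: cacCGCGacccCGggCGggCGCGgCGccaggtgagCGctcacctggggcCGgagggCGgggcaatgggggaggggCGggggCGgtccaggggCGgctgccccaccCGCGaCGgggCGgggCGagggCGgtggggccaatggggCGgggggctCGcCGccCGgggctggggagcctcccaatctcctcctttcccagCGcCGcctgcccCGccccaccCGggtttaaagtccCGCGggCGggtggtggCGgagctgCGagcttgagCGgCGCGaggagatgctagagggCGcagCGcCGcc
WNT5A: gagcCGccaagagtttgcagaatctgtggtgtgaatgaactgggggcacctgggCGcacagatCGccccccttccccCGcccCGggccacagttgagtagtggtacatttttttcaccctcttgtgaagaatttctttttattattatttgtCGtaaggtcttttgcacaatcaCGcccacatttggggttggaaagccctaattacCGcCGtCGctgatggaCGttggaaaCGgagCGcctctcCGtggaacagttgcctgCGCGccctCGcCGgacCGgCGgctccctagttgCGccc
WNT8A: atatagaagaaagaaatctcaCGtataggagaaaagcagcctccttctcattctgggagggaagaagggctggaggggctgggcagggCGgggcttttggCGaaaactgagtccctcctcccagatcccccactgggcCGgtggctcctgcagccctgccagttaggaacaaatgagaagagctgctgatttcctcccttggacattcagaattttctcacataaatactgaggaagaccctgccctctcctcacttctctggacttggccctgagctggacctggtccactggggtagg
WNT16: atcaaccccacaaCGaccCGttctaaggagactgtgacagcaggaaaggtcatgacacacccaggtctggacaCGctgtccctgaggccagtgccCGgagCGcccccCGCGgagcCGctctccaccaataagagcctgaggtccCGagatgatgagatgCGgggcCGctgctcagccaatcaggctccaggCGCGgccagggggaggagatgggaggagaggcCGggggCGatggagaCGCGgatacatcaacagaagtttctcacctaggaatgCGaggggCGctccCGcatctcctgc

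FZD4 held 40 CpG dinucleotides in these 300 bases and FZD5 held 38, WNT5A 21 and WNT16 20, while WNT8A held 4. The observed count over the count expected from base composition was 0.853 for FZD4, 0.866 for FZD5, 0.659 for WNT16 and 0.179 for WNT8A. WNT8A had the lowest ratio of the 36 promoters and WNT2, at 1.12, the highest.

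The 10 peak lists held 10253 to 75643 peaks. Induced RCOR2 had the most (75643 and 59726) and uninduced FLAG the fewest (10253 and 14958). The 2 RCOR1 libraries, with 49250 and 18297 peaks, resembled each other less than they resembled some libraries of other proteins. They shared 0.173 of their covered bases (Jaccard index), while replicate 2 shared 0.271 and 0.295 with the RCOR3 libraries, and replicate 1 shared 0.218 and 0.206 with the LSD1 libraries and 0.190 and 0.213 with the induced RCOR2 libraries. Which of the 2 departs from RCOR1, or whether a label was exchanged, cannot be told from peak lists, so counts for RCOR1 are also given for each library alone. Read depth is not given with the peak lists and is unknown, and how far the number of peaks follows it was not tested.

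Induced RCOR2 lay at the ends of nearly all of the Wnt genes, and LSD1 at almost none. The lists of induced RCOR2 had a gene-end peak at 40 and 41 of the 46 genes, RCOR1 at 23 and 12, RCOR3 at 4 and 10, and LSD1 at 2 and 1. Uninduced FLAG had one at 10 and 5. The means were 40.5 ± 0.707 genes for induced RCOR2, 17.5 ± 7.78 for RCOR1, 7.0 ± 4.24 for RCOR3, 1.5 ± 0.707 for LSD1 and 7.5 ± 3.54 for uninduced FLAG (SD, n = 2 libraries each). The 4 proteins differed by more than their replicates did (F = 29.9, exact one-sided permutation test over the 105 ways to pair 8 libraries, p = 0.00952, the smallest this design allows). No induced RCOR2 library overlapped any other library in this count. Induced and uninduced FLAG differed by 33.0 genes, but 2 libraries against 2 cannot give a two-sided exact p under 0.333, which is the value found.

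Set against all protein-coding genes, the same lists placed a gene-end peak of induced RCOR2 at 75.3 and 75.5% of genes (87.0 and 89.1% of the Wnt genes), RCOR1 at 56.8 and 34.4% (50 and 26.1%), RCOR3 at 20.9 and 25.9% (8.70 and 21.7%), LSD1 at 9.95 and 5.52% (4.35 and 2.17%) and uninduced FLAG at 24.6 and 14.6% (21.7 and 10.9%). The order of the 4 proteins was therefore that of the whole gene set. The Wnt genes lay above the background share for induced RCOR2 and below it in all 8 other libraries. The difference from all genes was not tested.

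**Figure D1:**
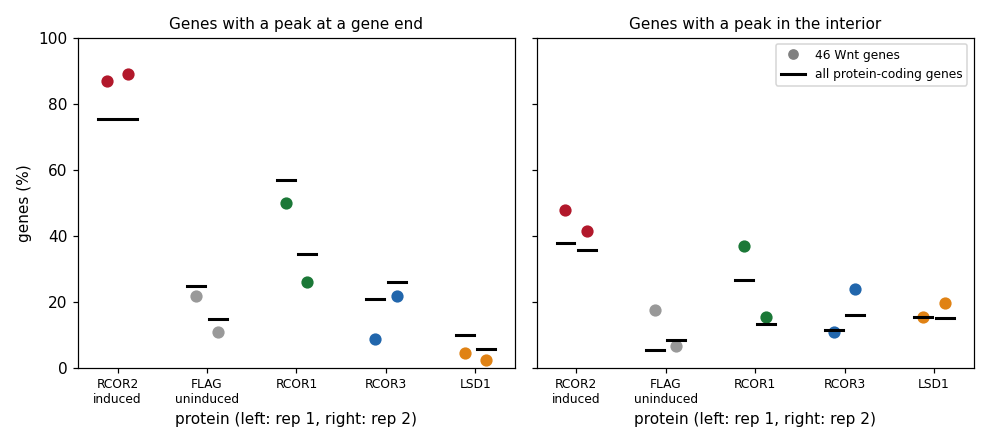
Share of genes (percent, y axis) with a peak at a gene end (left panel) or in the interior (right panel) in each of the 10 libraries, with replicate 1 on the left and replicate 2 on the right of each pair. Points are the 46 Wnt genes and bars all protein-coding genes; at gene ends only the induced RCOR2 points lie above their bars.

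With longer lists more genes are reached, so each list of the 4 proteins was also cut to its 13644 highest-scoring peaks, the length of the shortest. Induced RCOR2 then had a gene-end peak at 17 and 24 Wnt genes, RCOR1 at 10 and 10, RCOR3 at 4 and 1, and LSD1 at 1 and 1. Induced RCOR2 still had the highest counts, at a smaller distance from RCOR1. In the same shortened lists the Wnt genes were no longer above all genes in both induced RCOR2 libraries (37.0 and 52.2%, against 44.6 and 50.2%). For the other proteins they were below all genes, with RCOR1 at 21.7% in each library against 25.8 and 26.5%, RCOR3 at 8.70 and 2.17% against 20.9 and 12%, and LSD1 at 2.17% in each against 6.31 and 3.86%.

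Regions found in both libraries were most frequent for induced RCOR2 and then for RCOR1, with RCOR3 and LSD1 at the same count. An induced RCOR2 region lay at an end of 38 Wnt genes (82.6%, against 70.8% of all genes), an RCOR1 region at 11 (23.9%, against 30.5%), an RCOR3 region at 1 (2.17%, against 10.6%) and an LSD1 region at 1 (2.17%, against 4.16%). Both uninduced FLAG libraries shared a region at 4 genes (8.70%, against 5.77%). No Wnt gene lacked a peak in all 10 libraries, compared with 13.2% of all genes.

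**Figure D2:**
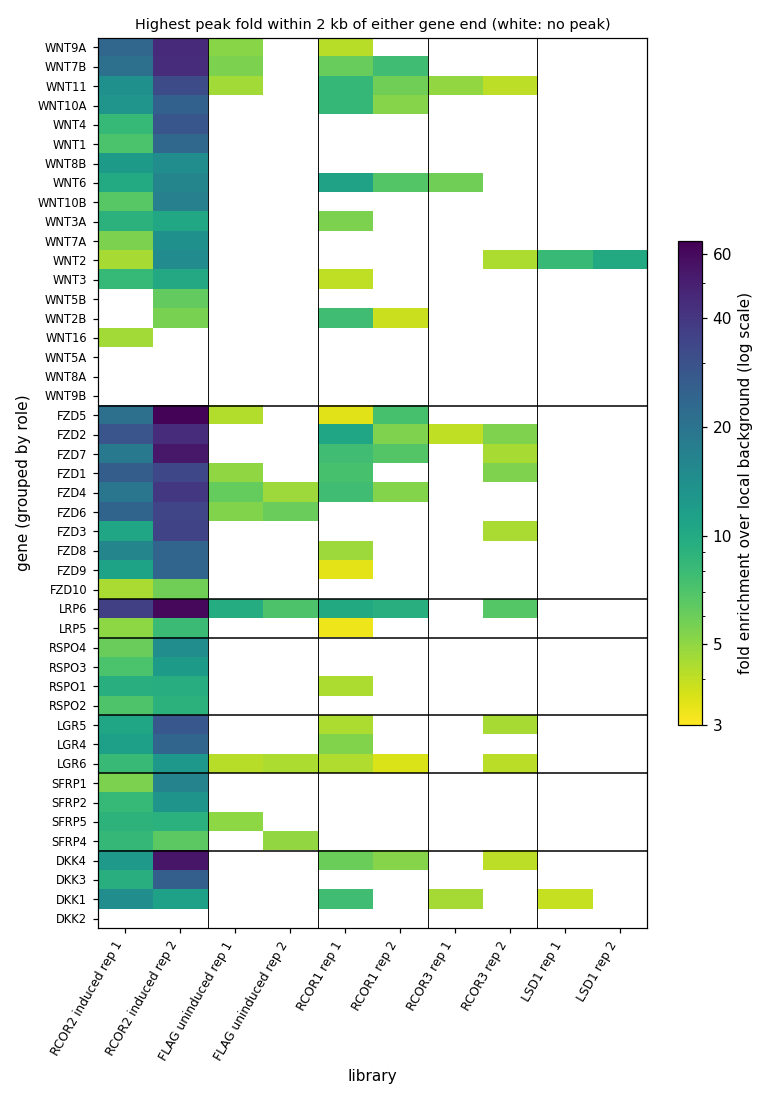
Highest fold within 2 kb of either gene end (colour, log scale, white where the library has no peak) for the 46 genes, grouped by role (rows), in the 10 libraries (columns). The 2 induced RCOR2 columns are filled almost throughout, with the highest values among the Frizzled genes and at LRP6, and the LSD1 columns hold peaks only at WNT2 and DKK1.

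Of the ligands, 13 of 19 had an induced RCOR2 region at a gene end (68.4%, against 70.8% of all genes). Their folds ran from 4.47 to 23.6 in replicate 1 (median 8.95) and from 10.1 to 44.7 in replicate 2 (median 17). Over all genes with such a region the medians were 13.3 and 24.5, and over all 38 Wnt genes 10.2 and 23.6. Replicate 2 gave the higher fold at 37 of the 39 Wnt genes with a peak of both libraries, as it did at 85.5% of all such genes. Genes are therefore ordered below by the lower of their percentile ranks within the 2 libraries.

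WNT9A, WNT7B and WNT11 ranked highest among the ligands, WNT9A through peaks at different ends of the gene in the 2 libraries. WNT7B, a ligand known from lung development, had folds of 20.8 and 43.8 with induced RCOR2, at chr22:45978144-45979794, and of 6.14 and 7.72 with RCOR1 in the same place. Uninduced FLAG had a peak there in replicate 1 only (5.52), and RCOR3 and LSD1 had none at the gene's ends. In this region both induced RCOR2 folds lay above those of the other libraries, while another end region of WNT7B had induced RCOR2 folds of 4.97 and 9.15 only.

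WNT9A carried 3 end regions. Its highest fold in replicate 1, 23.6, was at chr1:227919731-227920630, at the far end of the gene and 27778 bases past the listed start, where replicate 2 had 13.5. Its highest fold in replicate 2, 44.7, was at chr1:227946350-227947311, 1089 bases past the start, where replicate 1 had 12.7. The 2 libraries thus differed on which end of WNT9A carried the stronger peak, and its place among the highest-ranked genes joins the 2 ends. Taken by single regions, the lower percentile rank was at most 86.7 at WNT9A, against 94.7 at WNT7B and 88.6 at WNT11. Uninduced FLAG replicate 1 had a gene-end peak with a fold of 5.20 and RCOR1 replicate 1 one of 4.19.

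WNT11, a ligand best known for planar polarity signalling, had folds of 13.8 and 31.9 with induced RCOR2 at chr11:76208085-76210983. RCOR1 had its region at the opposite end of the gene, chr11:76184308-76185113, with folds of 8.39 and 5.82. RCOR3 had gene-end peaks of 4.94 and 4.08 in its 2 libraries, which formed no common region. The end regions of RCOR1 and induced RCOR2 at WNT11 thus lay at different ends. Inside the gene the 2 proteins overlapped. A weaker RCOR1 region at chr11:76207575-76207865 (3.35 and 4.20) overlapped an interior induced RCOR2 region with folds of 6.52 and 29.8. An uninduced FLAG peak also overlapped it.

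WNT6 and WNT10A are neighbours on chromosome 2 and shared an induced RCOR2 region between them, chr2:218873288-218874064, with folds of 9.40 and 15.4. At its own start WNT6 had induced RCOR2 folds of 9.96 and 15.9, and 1377 bases past the start an RCOR1 region with folds of 11.1 and 6.83. That RCOR1 region overlapped a further induced RCOR2 region with folds of 4.98 and 10.1. WNT10A had its stronger end region 12094 bases (replicate 2 summit) past the listed start, chr2:218892352-218893317, with 13.0 and 25.0 for induced RCOR2 and 8.39 and 5.25 for RCOR1. The region between the 2 genes was counted once for each of them.

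WNT2 was the only Wnt gene with an LSD1 region at an end. It lay at chr7:117276714-117277239, at the end of the gene 46087 bases downstream of the listed start, with folds of 8.21 and 10.1, and held no region of RCOR1, RCOR3 or induced RCOR2. Induced RCOR2 sat at the opposite end, over the start (chr7:117323047-117323396), with folds of 4.47 and 14.8. The LSD1 and RCOR2 sites of WNT2 were thus separate.

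Of the remaining ligands with an induced RCOR2 region at an end, WNT1, WNT10B, WNT2, WNT3, WNT3A, WNT4, WNT7A and WNT8B had highest folds of 4.47 to 12.2 in replicate 1 and 10.1 to 28.7 in replicate 2. At WNT8B the region lay 19623 bases past the listed start, and no induced RCOR2 region came within 2 kb of that start. WNT3 and WNT9B lie within the annotated extent of LRRC37A2, so that their peaks also fall inside that gene.

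The annotated extent of a gene can begin far upstream of its main start, and this mattered for the ligands without a gene-end region. Of the 8 Wnt genes without one (DKK2, FZD10, WNT16, WNT2B, WNT5A, WNT5B, WNT8A and WNT9B), 4 had an induced RCOR2 region within 2 kb of a listed start inside the gene. WNT5A, the classical ligand of non-canonical signalling, had folds of 8.85 and 17.5 over the promoter printed above and 6 interior regions in all. The values were 11.6 and 17.5 at WNT9B, 14.9 and 23.4 at WNT5B, and 15.7 and 18.2 at WNT2B. With those counted, 42 of the 46 genes had an induced RCOR2 region at an end or a listed start. The share of all genes under this wider rule was not computed, so whether 42 is high cannot be told.

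WNT2B was the only gene with an RCOR1 region but no induced RCOR2 region at an end. RCOR1 lay at its upstream start (chr1:112466115-112466548) with folds of 7.69 and 3.84. Induced RCOR2 lay at its downstream start (chr1:112508168-112509655), where RCOR1 had no region. At WNT5B both proteins met at one interior start, with RCOR1 folds of 11.4 and 5.25.

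**Figure D3:**
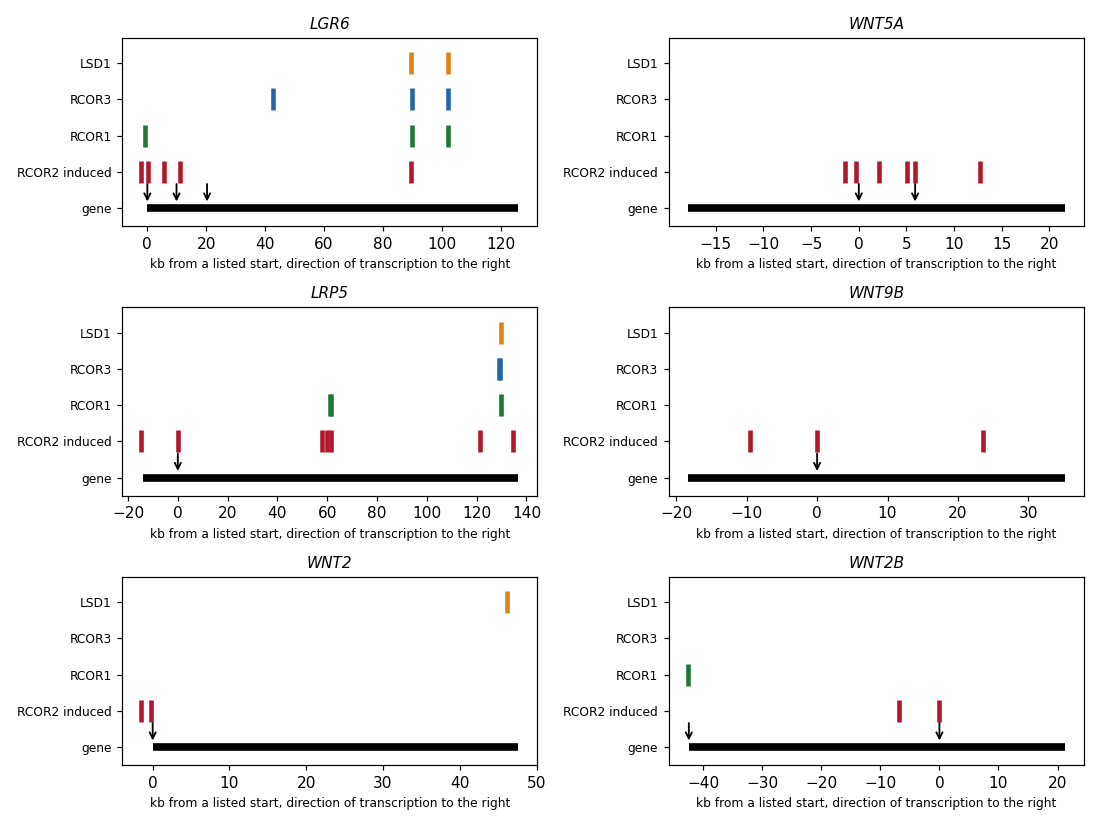
Regions of induced RCOR2, RCOR1, RCOR3 and LSD1 (coloured bars, 1 row per protein) over LGR6, LRP5, WNT2, WNT5A, WNT9B and WNT2B, by distance in kb from a listed start, with the gene as a black bar and listed starts as arrows. Induced RCOR2 bars stand at or near a listed start in all 6 genes, and LSD1 bars in LGR6, LRP5 and WNT2 stand far from it.

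The Frizzled genes encode the membrane-spanning receptors of Wnt proteins, and most had high folds of induced RCOR2. A region lay at an end of 9 of 10, with folds of 10.5 to 28.8 (median 19.4) in replicate 1 and 23.9 to 62.7 (median 34.6) in replicate 2. The 29 other Wnt genes with a region had medians of 8.85 and 14.8, and 6 of the 10 highest-ranked Wnt genes were Frizzled genes. When induced peaks that overlap an uninduced FLAG peak were left out, regions remained at 6 Frizzled genes (medians 13.5 and 29.3) and 26 others (medians 8.30 and 14.4), and 5 of the 10 highest-ranked genes were Frizzled genes. FZD1, FZD4, FZD6, LRP6, SFRP4 and WNT11 then had no gene-end region found in both libraries. The mean fold of the 2 libraries went from 41.8 to 13.5 at FZD5, and from 32.3 to 7.06 at WNT7B. The ranges of the families overlapped, since LRP6, WNT9A, WNT7B and DKK4 also had high folds, and the difference between the families was not tested.

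FZD5, whose promoter printed above holds 38 CpG dinucleotides, had folds of 20.9 and 62.7 at chr2:207769291-207770243, with both summits within 54 bases of the listed start. RCOR1 reached 3.44 and 7.35 there, and uninduced FLAG 4.28 in replicate 1 only. RCOR3 and LSD1 had no peak at its ends. FZD2 was the only Wnt gene with an RCOR3 region at an end. At FZD2 induced RCOR2 reached 28.8 and 44.0, RCOR1 10.6 and 5.42 and RCOR3 4.04 and 4.40 (region chr17:44557167-44557442), with no peak of LSD1 or uninduced FLAG. All 3 RCOR proteins thus overlapped at FZD2.

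FZD7 resembled FZD2 in having both RCOR1 (7.72 and 6.83) and induced RCOR2 (18.8 and 53.2) at the same end. FZD1, with 26.4 and 33.5, and FZD6, with 24.1 and 34.3, had no RCOR1 region. FZD4, the receptor for Wnts and for norrin, had 19.4 and 39.3, and its RCOR1 peaks (7.72 and 5.33) did not overlap each other. The region at FZD4 also lies within 2 kb of an end of PRSS23.

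FZD3, FZD8 and FZD9 had folds of 10.5 to 16.0 in replicate 1 and 23.9 to 34.6 in replicate 2. FZD10 stood apart with peaks of 4.43 and 5.85 that did not overlap, and so had no region. No Frizzled gene had an interior region of any of the 4 proteins or an LSD1 peak at an end. Gene length limits the interior count. FZD9, FZD10 and FZD2 span 2.34, 3.28 and 3.78 kb, so no base in them lies over 2 kb from both ends. FZD8 and FZD7, at 4.05 and 4.59 kb, have little interior. The longest are FZD3 (80.0 kb) and FZD6 (34.4 kb).

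**Figure D4:**
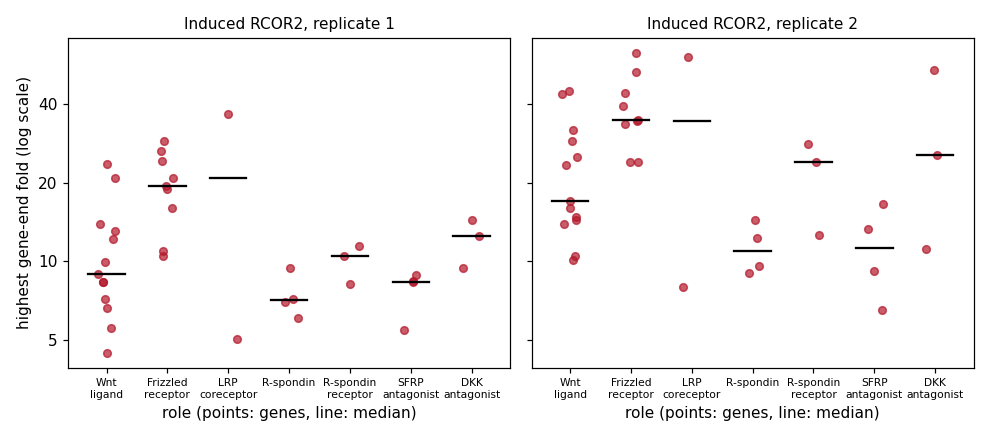
Highest induced RCOR2 fold at a gene end (log scale) for each Wnt gene with a region in both libraries, by role, in replicate 1 (left) and replicate 2 (right), with a line at each median. The Frizzled median is 19.4 in replicate 1 and 34.6 in replicate 2, above the ligand, R-spondin and SFRP medians in both; the LRP coreceptor median, over 2 genes, is 20.8 and 34.3.

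The genes of the coreceptors LRP5 and LRP6, which bind Wnt proteins together with a Frizzled receptor, differed from each other. LRP6 had the highest rank of all Wnt genes: induced RCOR2 folds were 36.5 and 60.6, RCOR1 folds 10.1 and 9.45, uninduced FLAG folds 9.72 and 7.08, and RCOR3 had a peak in replicate 2 only (6.72). The regions of induced RCOR2, RCOR1 and uninduced FLAG overlapped at chr12:12266068-12267627. LRP5 had gene-end folds of 5.05 and 7.97 only, at the far end, and a second end region with its summit at -14849 bases from the listed start. At the listed start, which lies inside the annotated gene, it had 10.5 and 17.5.

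The R-spondins and the SFRP antagonists had lower folds. All 4 R-spondin genes had an induced RCOR2 region at an end, with folds of 6.09 to 9.40 (median 7.08) and 9.04 to 14.4 (median 10.9), and none had a region of RCOR1 or RCOR3. All 4 SFRP genes did too, with 5.47 to 8.85 (median 8.35) and 6.53 to 16.5 (median 11.2), and again no region of RCOR1 or RCOR3 at an end or inside. The R-spondin receptor genes LGR4, LGR5 and LGR6 had folds of 8.18 to 11.4 and 12.6 to 28.2. LGR6 alone of the 3 had an RCOR1 region at an end (4.30 and 3.57), which did not overlap the RCOR2 regions.

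Among the Dickkopf genes, DKK4 had folds of 12.5 and 53.7 with induced RCOR2 and 5.97 and 5.25 with RCOR1, in a region that also lies at an end of VDAC3. DKK1 had 14.4 and 11.2, and was with SFRP4 one of the 2 genes where replicate 1 was higher. DKK3 had 9.40 and 25.5. DKK2 had no peak of any protein at its ends and 1 interior LSD1 peak in replicate 2 (5.49).

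Uninduced FLAG peaks were used as the background at each gene. Of the 38 genes with an induced RCOR2 region at an end, 27 had no uninduced peak at either end (71.1%, against 57.5% of all genes with such a region) and 11 had one: FZD1, FZD4, FZD5, FZD6, LGR6, LRP6, SFRP4, SFRP5, WNT11, WNT7B and WNT9A. Out of all genes, those 27 are 58.7% of the Wnt genes, against 40.7% for all protein-coding genes. At each of these 11 the lower induced fold was above the higher uninduced fold, though the peaks compared need not lie at the same site. The share of all genes for which this holds was not computed. Over all genes with a gene-end peak the median folds were 12.7 and 22.9 in the induced libraries and 5.06 and 5.08 in the uninduced ones. Both uninduced libraries had a region at FZD4, FZD6, LGR6 and LRP6, with FZD6 at 5.38 and 6.08 and LGR6 at 4.19 and 4.41. Of the 10 highest-ranked genes, 8 had an uninduced peak. The median gene-end fold over Wnt genes was 9.68 and 17 in the induced libraries and 5.13 and 4.93 in the uninduced ones (13.3 ± 5.18 against 5.03 ± 0.143, SD, n = 2). This difference of 8.32 had an exact two-sided permutation p of 0.333, the smallest possible.

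The authors deposited 2 lists of positions for RCOR2, named high and low, which the sources used here do not define. RCOR2-high regions lay at an end of 13 Wnt genes (28.3%, against 31.6% of all genes): 7 of the 10 Frizzled genes, LRP6, DKK4, WNT10A, WNT11, WNT7B and WNT9A. All of the 10 highest-ranked genes were among them. The ranking and the list both describe RCOR2 in the same series, so this overlap is no independent support for the ranking. The share among equally high-ranked genes of the whole gene set was not computed. RCOR2-low regions lay at an end of 7 (15.2%, against 27.2%) and in the interior of 14 (30.4%, against 19.0%). RCOR2-high regions lay in the interior of 2, WNT11 and WNT2B (4.35%, against 4.25%). Both lists hold positions without values, and nothing more was drawn from them.

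Most Wnt genes with an RCOR1 region at an end also had one of induced RCOR2, as did most Wnt genes. The 11 genes with an RCOR1 region were DKK4, FZD2, FZD5, FZD7, LGR6, LRP6, WNT10A, WNT11, WNT2B, WNT6 and WNT7B. Of these, 10 also had an induced RCOR2 region at an end, against 38 of the 46 Wnt genes (82.6%) and 70.8% of all genes. At 8 the 2 regions overlapped, and the share of such overlaps over all genes was not computed. RCOR1 folds in these regions had medians of 7.72 and 5.82, against 7.38 and 5.78 over all genes with one. RCOR1 replicate 1 alone had a peak at 23 of the 46 genes and replicate 2 alone at 12.

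Within 2 kb of a listed start, which 31 of the genes have, induced RCOR2 had a region at 28 (90.3%, against 72.2% of all genes with a listed start), all except WNT16, WNT8A and WNT8B. RCOR1 had one at 5 (16.1%, against 31.1%): FZD5, LGR6, WNT2B, WNT5B and WNT6. RCOR3 had none (10.8% of all genes) and LSD1 none (3.9%). Uninduced FLAG had 2 (6.45%, against 5.76%). The 15 Wnt genes without a listed start are not in these shares. They include DKK4, FZD2, FZD7, LRP6, WNT11 and WNT7B, which all had an RCOR1 region at an end. At gene ends RCOR1 regions lay at 23.9% of all 46 Wnt genes, against 30.5% of all genes. Among the 25 genes with both a listed start and a gene-end region of induced RCOR2, the summits of both libraries lay within 1000 bases of the start at 16.

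The Wnt promoters had a median ratio of observed to expected CpG close to that of all promoters, but a higher CpG count. The ratio had a median of 0.767 over the 36 promoters, against 0.738 over 22155 promoters of all protein-coding genes. The median CpG count was 28 against 21, and the median GC content 66.7 against 62.3%. A ratio under 0.4 was found at 4 of the 36, against 6146 of the 22155. One of 0.6 or more was found at 27, against 13780. These differences were not tested. Of the 27 Wnt promoters with a ratio of 0.6 or more, an induced RCOR2 region overlapped 25 (92.6%), against 89.3% of all 13780 promoters of that kind. RCOR1 overlapped 2 of the 27 (7.41%), against 35.0%. Wnt genes with an RCOR1 region at an end but no listed start, such as FZD2 and LRP6, are not in this count. In the class from 0.4 to 0.6 induced RCOR2 overlapped 3 of 5 (42.0% of all), and in the class under 0.4 it overlapped 1 of 4 (6.05% of all). The exception was WNT5B, with a ratio of 0.352 and folds of 14.9 and 23.4. The WNT8A promoter printed above had no RCOR2 peak. The WNT16 promoter had a ratio of 0.659 but a peak in replicate 1 only (5.73).

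**Figure D5:**
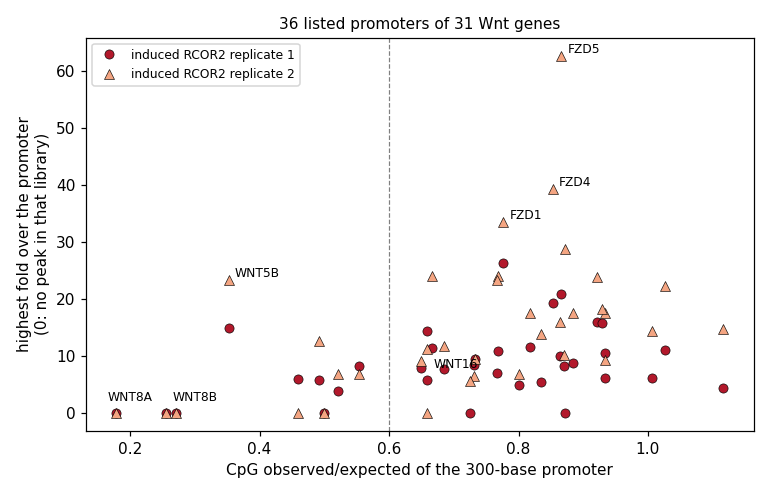
Highest induced RCOR2 fold over each of the 36 listed promoters (y axis, 0 where the library has no peak) against the ratio of observed to expected CpG in its 300 bases (x axis), with circles for replicate 1 and triangles for replicate 2. The dashed line marks 0.6; the highest folds (FZD5, FZD4 and FZD1) lie to its right, and WNT5B, at 0.352, is the one promoter under 0.4 with a peak.

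Short motifs, 8 in all, were counted on both strands of the promoters as a description of their letters. The GC box GGGCGGG was in 25 of the 36 Wnt promoters (69.4%, against 42.3% of all), and the NF-Y box CCAAT in 14 (38.9%, against 34.6%). The E-box CACGTG was in 1 (2.78%, against 8.34%), the TCF/LEF core TCAAAG in 1, that of DKK1 (2.78%, against 11.0%), and the GATA motif AGATAA in 2 (5.56%, against 7.88%). The longer TCF/LEF motif CTTTGAT, which contains the core on its other strand, the ETS motif CCGGAAG and the CRE motif TGACGTCA were in none of the 36, against 1.99, 12.8 and 2.26% of all promoters.

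Inside the genes, too, both induced RCOR2 libraries had the highest counts. Interior peaks were found in 22 and 19 of the 46 genes with induced RCOR2, 17 and 7 with RCOR1, 5 and 11 with RCOR3, 7 and 9 with LSD1, and 8 and 3 with uninduced FLAG. The corresponding shares of all genes were 37.7 and 35.7%, 26.6 and 13.1%, 11.3 and 15.8%, 15.3 and 15.1%, and 5.42 and 8.22%. The test over the 4 proteins did not pass (F = 3.73, exact one-sided permutation p = 0.190). Regions of both libraries were found in 15 genes for induced RCOR2 (24.8% of all genes), 6 for RCOR1 (11.6%), 3 for RCOR3 (7.26%) and 5 for LSD1 (11.5%), and in none for uninduced FLAG (0.961%).

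Peaks were also divided between ends and interior within each library. Of all LSD1 peaks at Wnt genes, 84.6 and 92.3% were interior, against 54.7 and 48.6% for induced RCOR2, 67.0 and 43.3% for RCOR1 and 64.3 and 57.7% for RCOR3. The LSD1 shares rest on 11 and 12 interior peaks, with 2 and 1 at ends. Over all genes, too, LSD1 had interior peaks at more genes (3054 and 3013) than gene-end peaks (1987 and 1103). The interior share of peaks over all genes was not computed. Both LSD1 values lay above those of all other libraries, but over the 4 proteins the test did not pass (F = 6.37, exact one-sided permutation p = 0.105). Without RCOR1 replicate 1 or replicate 2 it did (F = 27.9 and 21.0, exact permutation p = 0.0286 each), where the lone RCOR1 library adds no spread of its own and is assumed to vary like the other groups. Per megabase of gene interior, induced RCOR2 had 21.2 regions over the Wnt genes and 8.95 over all genes, RCOR1 5.30 and 3.31, RCOR3 3.18 and 2.08, and LSD1 3.71 and 4.59. This interior includes listed starts inside the annotated gene, as at LRP5, WNT2B, WNT5A, WNT5B and WNT9B. The longest Wnt gene spans 184 kb and the longest of all genes 2474 kb. The densities were not adjusted for either and their difference was not tested.

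LSD1 had 7 interior regions, in DKK3, LGR6, LRP5, RSPO3 and SFRP1. In LGR6, one lay at chr1:202295582-202296170, 81851 bases past the nearest listed start, with LSD1 folds of 5.87 and 5.87, RCOR1 12.6 and 8.27, RCOR3 4.03 and 8.23, and no induced RCOR2 region. The other LGR6 site, chr1:202283255-202283547, had LSD1 folds of 3.75 and 4.28 and was the one place among the 46 genes where regions of all 4 proteins overlapped. Induced RCOR2 there had 3.98 and 4.77, against 8.18 and 12.6 as the highest at the gene's ends.

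In LRP5 an LSD1 region lay 129539 bases past the listed start, at chr11:68442013-68442462, with folds of 2.74 and 2.92. RCOR1 had 13.1 and 6.30 there and RCOR3 5.81 and 6.72, and induced RCOR2 had no region. LGR6 and LRP5 thus each held a site of RCOR1, RCOR3 and LSD1 far from the start without induced RCOR2.

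DKK3 held 2 LSD1 regions, both overlapped by induced RCOR2. At chr11:11968697-11968986 LSD1 had 3.65 and 3.41, RCOR1 7.04 and 4.85 and induced RCOR2 7.19 and 5.85. At chr11:11979282-11979542 LSD1 had 5.09 and 2.47. In RSPO3 an LSD1 region 10854 bases past the start, chr6:127129314-127129648, had folds of 5.52 and 4.85, and in SFRP1 one had 5.11 and 5.96; neither overlapped a region of an RCOR protein.

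Over the 7 LSD1 sites, 4 overlapped RCOR1, 3 RCOR3, 3 induced RCOR2 and 6 the RCOR2-low list. Over all 5519 interior LSD1 regions the shares were 39.2, 31.3, 15.9 and 82.0%. None of the 7 overlapped an uninduced FLAG peak.

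RCOR1 and RCOR3 also met inside WNT4, a ligand of gonad and kidney development. At chr1:22121360-22121883, 21440 bases past the listed start, RCOR1 had 8.72 and 6.30, RCOR3 4.20 and 5.22 and induced RCOR2 7.19 and 6.38. LSD1 had an interior peak in WNT4 in replicate 1 only (2.86).

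Of 54 other genes of the pathway, 51 had an induced RCOR2 region at an end (94.4%, against 70.8% of all genes; the others were CER1, DACT1 and SOSTDC1), and 23 had an RCOR1 region (42.6%, against 30.5%). RCOR3 had one at 9 (16.7%, against 10.6%), LSD1 at 5 (9.26%, against 4.16%) and uninduced FLAG at 4 (7.41%, against 5.77%). Per library, induced RCOR2 had gene-end peaks at 51 and 51 of them, RCOR1 at 43 and 27, RCOR3 at 16 and 18, and LSD1 at 14 and 6 (F = 16.8, exact one-sided permutation p = 0.00952, the smallest possible). In the same exact permutation test this call was lost when either induced RCOR2 library (p = 0.0952 each), either RCOR3 library (p = 0.0571 each) or LSD1 replicate 2 (p = 0.105) was left out. It was also lost when peaks overlapping uninduced FLAG were removed (exact permutation p = 0.0571).

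The highest-ranked of these genes were CTNNB1, which encodes β-catenin, with induced RCOR2 folds of 24.3 and 63.8, and VANGL2, a planar polarity gene, with 23.2 and 60.7. The kinase gene GSK3B, whose product marks β-catenin for destruction, had 33.1 and 48.2. CTNNB1 had uninduced FLAG folds of 7.78 and 5.66, and no LSD1 peak.

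LSD1 regions at an end were found at BCL9, TCF7, TCF7L2, TLE3 and TLE4. These encode TCF factors and the coactivators and corepressors that bind with them in the nucleus. Other genes of these kinds among the 54, TCF7L1, LEF1, BCL9L, PYGO1, PYGO2, TLE1 and TLE2, had no LSD1 region at an end. Whether LSD1 favoured such genes was not tested. BCL9 had LSD1 folds of 8.93 and 12.8 and TLE4 6.14 and 6.15. TCF7 had only 3.93 and 4.36, and TCF7L2 3.58 and 4.66. TLE3 had 2.62 in replicate 1 and a higher fold in replicate 2. Interior LSD1 regions lay in 14 of the 54 (25.9%, against 11.5% of all genes), with 10.2 and 10.5 in TCF7L2, 13.4 and 13.9 in PRICKLE2 and 12.6 and 13.4 in KREMEN1, the Dickkopf coreceptor. Longer genes have more interior, and regions per megabase were not computed for the 54 genes. Whether their share is high for their length therefore cannot be told. The highest interior LSD1 folds in the ligand, receptor and antagonist genes were 5.87 and 6.57, in LGR6.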

How the data were processed

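Peak lists of 10 ChIP-seq libraries were used as deposited. The submitters' processing notes name the aligner BWA 0.7.17, the build GRCh38, and MACS2 and deepTools without versions; the sources used here do not say whether a control library entered the peak calls. The authors deposited 1 list per library with a fold enrichment (a ratio) and a −log10 q-value per peak, none under 1.3 (q = 0.05). A further 2 lists of RCOR2 positions carry no values. Peaks were called per library.

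Gene extents and promoters came from RefSeq (GRCh38.p14). Peaks were assigned to genes with Python 3.11.15, numpy 2.4.6 and pandas 2.3.3; a gene's fold is that of its strongest peak. Counts per library were compared by exact permutation tests, checked on simulated data. The 46 genes, the 54 pathway genes and the motifs were chosen with earlier results of these data known. Named were genes with regions of RCOR1, RCOR3 or LSD1, the 10 highest-ranked by induced RCOR2, genes without peaks, the 10 highest pathway genes and pathway genes with LSD1 regions, up to 10 per protein in the interior; other genes were named after their values were seen. Alternatives changed the window, peak set, width, overlap, gene end and replicates. Marker lists give occupancy only: induced RCOR2 lay at an end of 11 of 11 adrenergic, 10 of 11 mesenchymal and 2 of 5 Schwann and glial markers (70.8% of all genes). Expression was not measured in these libraries, so the cell label was not checked by it. Peak lists hold no read counts, so no counting intervals are given.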

Additional observations from a re-analysis of the deposited data

How the results depend on the processing

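The difference between the 4 proteins in Wnt genes with a gene-end peak passed the test under every alternative run, with F from 14 to 95.8 when 1 library was left out. The interior share passed with equal numbers of top peaks (F = 13.9, p = 0.0286, exact permutation) and had F from 2.47 to 27.9 without 1 library. The pathway count had F = 5.95 without peaks overlapping uninduced FLAG and from 8.98 to 63.9 without 1 library. Counts of genes with a region moved more. With a 500 bp window RCOR1 had 6 at an end and LSD1 0, and with 5 kb RCOR3 had 2 and LSD1 2. With equal numbers of top peaks end counts were 6 for RCOR1, 15 for induced RCOR2, 2 for uninduced FLAG and 0 for RCOR3, and interior counts 6 for induced RCOR2 and 2 for LSD1. Above the median score end counts were 5 for RCOR1, 1 for uninduced FLAG and 0 for RCOR3, and interior counts 3 for RCOR1 and 1 for LSD1. With 500 bp peaks uninduced FLAG had 1 in the interior. With listed starts only, RCOR1 had 5, uninduced FLAG 2, RCOR3 0 and LSD1 0. With peaks of either library, end counts were 23 for RCOR1, 11 for uninduced FLAG, 12 for RCOR3 and 2 for LSD1, and interior counts 18, 10, 12 and 10, with 23 for induced RCOR2. With 1 library alone, RCOR1 had 12 to 23 at an end and 7 to 17 inside, uninduced FLAG 5 to 10 at an end and 3 to 8 inside, RCOR3 4 to 10 and 5 to 11, and LSD1 1 to 2 and 7 to 9. The cause was not tested; fewer or more peaks enter by construction. With a 500 bp window the mean induced RCOR2 fold went from 32.3 to 7.06 at WNT7B and from 34.2 to 16.7 at WNT9A, and with 5 kb from 17.7 to 51.6 at LGR4. Replicate numbers did not pair libraries (correlations of deviations -0.031 to 0.107). With proteins permuted within replicate numbers (the replicate block), p was 0.0417 for gene ends, 0.333 for the interior, 0.167 for the interior share and 0.0417 for the pathway, so no call changed. Read depth is unknown, so a gene without a peak is not shown to be unoccupied.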
